A study of Mus musculus with 21 samples.

Results

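The tibialis anterior, a muscle at the front of the shin, was compared whole at day 8 between mice that carried Foxp3-DTR and mice that did not, in the samples whose titles read xINJ. The samples were chosen by their titles, which gave 5 of the 21 samples of the series: 2 DTR+ xINJ d8 and 3 DTR- xINJ d8. All of them came from male C57BL/6 mice of 8 weeks. The labels say that the tibialis anterior was injected with cardiotoxin, a venom component that destroys fibres, on day 0. Mice of both genotypes were given diphtheria toxin on alternate days from then on, so the DTR- mice are toxin-treated controls that lack the receptor. The labels do not define xINJ, and their treatment field names the same cardiotoxin injury for samples titled CTx and for samples titled xINJ, so the title's own term is kept here. They also do not give the form of the Foxp3-DTR allele, or say whether each sample was a separate animal. The p-values below therefore judge a difference only against the spread of samples within groups, pooled over the series, CTx muscle included. Of its 9 groups, DTR+ d0 and DTR+ xINJ d4 hold 1 sample each and add nothing to that spread. The pooled spread may be technical.

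DTR is the receptor for diphtheria toxin. Placed under control of Foxp3, the transcription factor that defines regulatory T cells (Tregs), it makes those cells sensitive to the toxin. Tregs restrain effector T cells and NK cells, which secrete interferon gamma in inflamed tissue. Interferon gamma acts on GAS elements and, through the IRF factors it induces, on interferon-stimulated response elements (ISREs). Type I interferons act mainly on ISREs, so the genes that answer each kind of interferon overlap in part.

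Values are log2 intensities, 1 array per sample, and medians of the 5 arrays lay between 133.05 and 143.03 on the linear scale. Skeletal muscle markers were high in all 5 samples, with 11 of 11 markers between 11.37 and 14.04. Foxp3 itself was at 6.61, 6.95 and 6.61 in the DTR- samples and at 6.68 and 6.66 in the DTR+ samples. Those levels lie near the 40th percentile of the 5 arrays (6.6 to 6.78), and the groups overlapped (limma adjusted p = 0.98), so in whole muscle this probe set gives no check of the labels. Of 10 Treg genes tested, 0 passed in either direction. In whole tissue, fewer cells of a type and less RNA per cell cannot be told apart.

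Interferon-induced and antigen presentation genes led the genes that were higher in DTR+ muscle. Of 13332 genes tested, 346 passed at a Benjamini-Hochberg adjusted p under 0.05 (2.60%). Of those, 239 were higher in DTR+ muscle (1.79%) and 107 were lower (0.803%). A change of more than 2-fold was seen for 139 of the higher genes and 39 of the lower ones. All 239 and all 107 had groups that did not overlap, which among all genes tested held for 15.3% with DTR+ above and 14.7% with DTR+ below. The size of the call set changed when a sample was left out. It was 90 without DTR+ replicate 1, 153 without DTR+ replicate 2, 183 without DTR- replicate 1, 437 without DTR- replicate 2 and 132 without DTR- replicate 3. In all 5 of these fits 53 higher and 7 lower genes passed, and 0 of the 346 changed sign. A fit without a DTR+ sample sets 1 against 3 and has less precision, so a call lost there need not reflect the value of that sample. With 2 against 3 samples an exact permutation test of a single gene cannot go below 0.1.

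**Figure D1:**
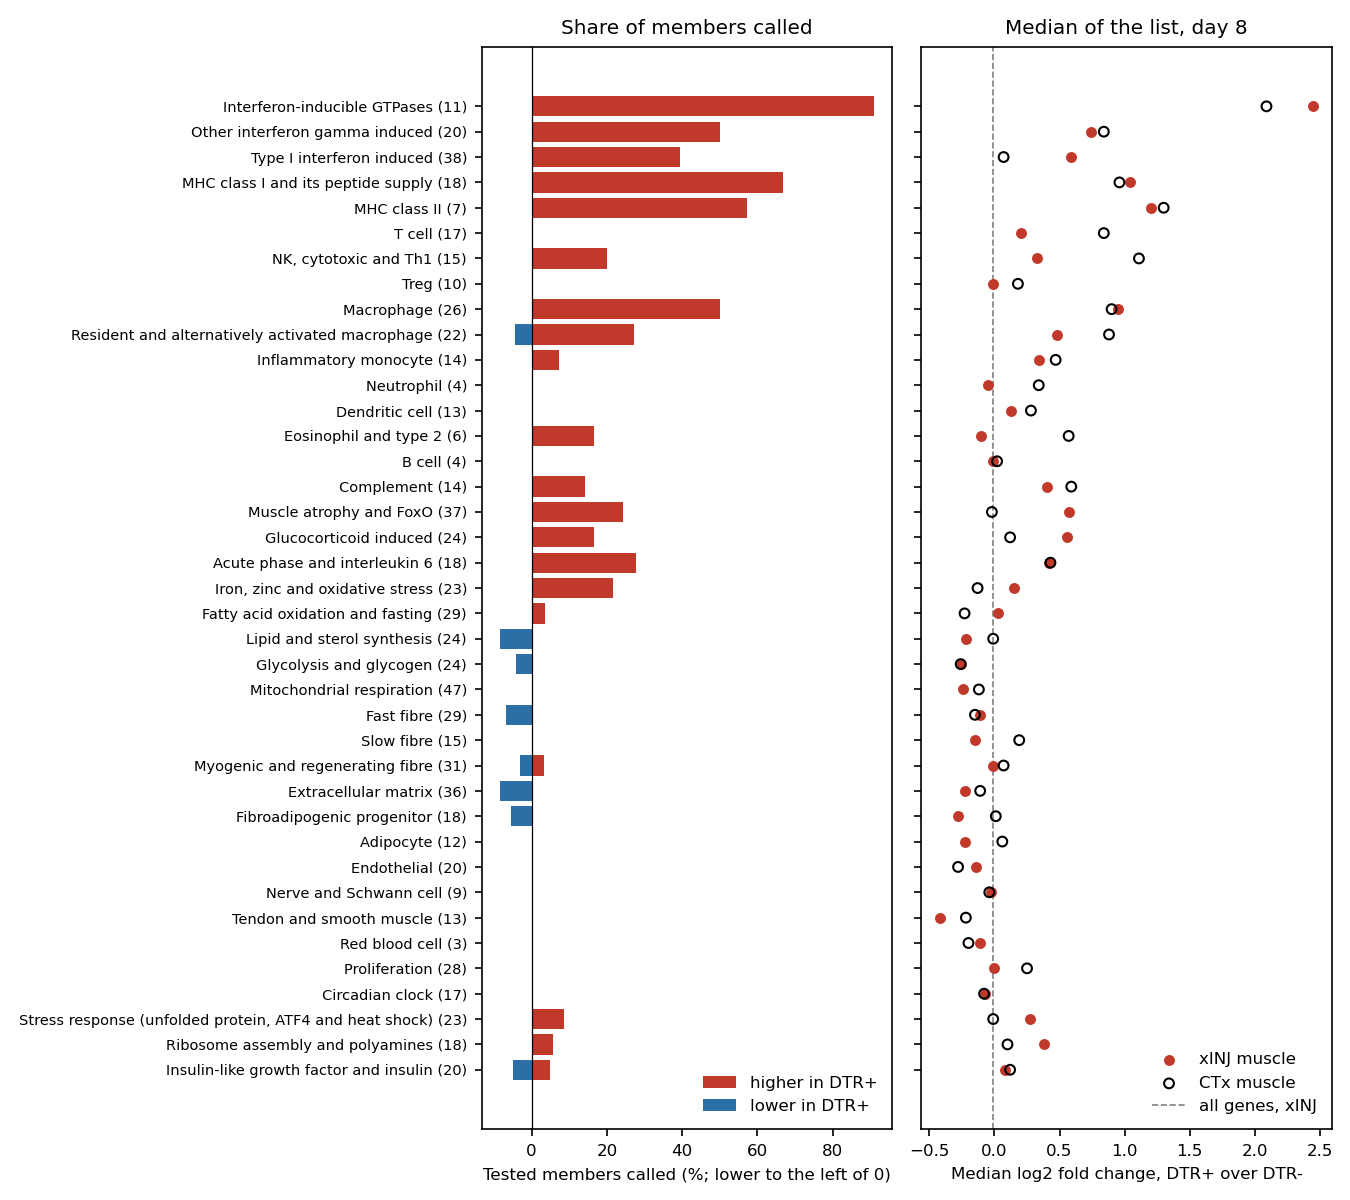
Genes by list in xINJ muscle at day 8. The left panel gives the percentage of tested members (number in parentheses) that passed, with lower genes to the left of 0, and the right panel gives the median log2 fold change of DTR+ over DTR- in xINJ muscle (filled) and CTx muscle (open). Interferon and MHC lists stand at the top with medians of 0.59 to 2.45, against -0.01 for all genes tested.

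The interferon-inducible GTPases showed the largest differences. These are the immunity-related GTPases (Irg) and guanylate-binding proteins (Gbp), which attack the vacuoles of intracellular pathogens and are induced by interferon. The list had 27 entries, of which 11 matched a gene measured here, and the others were not tested. Of the 11 members tested, 10 were higher and 0 lower, with a median log2 difference of 2.45. The exception, Gbp9, was at 0.99 ± 0.31 (SE, limma adjusted p = 0.12). The set of RefSeq promoters used here covers 5 of the 10. All 5 had an ISRE core (GAAA, any 2 bases, GAAA, on either strand) in the 250 bases before the start. Among the 10570 tested genes with a promoter 2.60% had a core. Stretches of 3 promoters are shown as examples of genes that hold the core, and Gm12185 is not among the 5 counted. Cd274, described below, was higher as well and held neither an ISRE core nor a GAS match in this window. The sequences run 5′ to 3′ on the strand of the gene (GRCm38.p6, RefSeq), and capitals mark the ISRE core or its reverse complement. A match describes the letters only and does not show that a factor binds.
Gm12185 (chr11:48927233-48927272, minus strand): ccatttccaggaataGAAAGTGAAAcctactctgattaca
Irgm1 (chr11:48871421-48871465, minus strand): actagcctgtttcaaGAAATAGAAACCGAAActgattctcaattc
Gbp7 (chr3:142530268-142530307, plus strand): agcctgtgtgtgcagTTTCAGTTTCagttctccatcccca

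Irgm1, which controls where other Irg proteins load onto membranes, was at 8.26, 7.44 and 8.20 in DTR- muscle and at 12.44 and 11.33 in DTR+ muscle. The groups were more than 3 log2 units apart, and replicate 1 was the higher DTR+ sample. The difference was 3.92 ± 0.28 (SE), a 15.1-fold change (limma adjusted p = 3.13e-07); the 2 overlapping ISRE cores shown above lie within the last 45 bases before its start. Iigp1, an effector Irg protein, was at 7.88, 7.22 and 7.42 against 12.74 and 11.56. The DTR+ samples stood far above the controls, and the difference was 4.64 ± 0.43 (25.0-fold, adjusted p = 2.93e-06). Gm12185, which is not in the counted list, was at 5.91, 4.81 and 5.12 against 10.87 and 9.25. All 3 of its DTR- values were below the 40th percentile of their arrays, so the change is given as at least 10.5-fold (adjusted p = 1.22e-06). Gbp7 was at 7.90, 7.53 and 8.27 against 12.36 and 11.41, a difference of 3.99 ± 0.33 (adjusted p = 9.79e-07). Gbp4 was at 7.54, 7.74 and 8.24 against 10.48 and 10.50, with almost no spread between the DTR+ samples (2.65 ± 0.37, adjusted p = 4.04e-04). Gbp3 (2.45 on the log2 scale), Gbp5 (2.27) and Gbp11 (at least 2.67-fold) also passed. Between 8 and 10 members of the list passed whichever of the 5 samples was left out, 8 without DTR+ replicate 1. Members of these families resemble each other in sequence, and whether probes of one also bind another was not tested.

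Other targets of interferon gamma followed. Of 20 further genes that interferon gamma induces, 10 were higher and 0 lower (median 0.74). Cd274, which encodes the checkpoint ligand PD-L1, was at 7.83, 7.44 and 8.23 in DTR- and at 12.66 and 11.32 in DTR+ muscle. The difference was 4.16 ± 0.35 (17.9-fold, limma adjusted p = 9.79e-07). Irf1, a transcription factor that interferon gamma induces directly, was at 7.24, 7.37 and 7.70 against 10.12 and 9.25 (2.25 ± 0.30, adjusted p = 3.23e-04). Its promoter held a GAS match (TTCNNNGAA on either strand), which 5.88% of tested promoters and 7.94% of those of higher genes also held. The stretch is shown because Irf1 links the GAS and ISRE arms of the response, and capitals mark the match.
Irf1 (chr11:53769909-53769947, plus strand): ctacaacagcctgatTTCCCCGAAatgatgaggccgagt

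Cxcl9, a chemokine that draws in T cells through CXCR3, was at 7.59, 7.51 and 8.01 against 10.23 and 9.81 (2.32 ± 0.33, limma adjusted p = 4.07e-04). Parp14, an ADP-ribosyltransferase, was at 7.36, 7.09 and 7.28 against 10.39 and 9.03 (2.46 ± 0.34, adjusted p = 3.53e-04). In each of these genes the lower DTR+ sample was above every DTR- sample by more than 1 log2 unit. Ifng, the gene of the cytokine itself, did not differ beyond its spread, at 5.99, 6.61 and 6.34 against 6.28 and 6.43 (adjusted p = 0.99), all near or under the 40th percentile level. The count for this list fell from 10 to 5 without DTR+ replicate 1 and to 7 without DTR+ replicate 2, DTR- replicate 1 or DTR- replicate 3. Cd274, Irf1, Cxcl9 and Parp14 passed in all 5 fits.

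**Figure D2:**
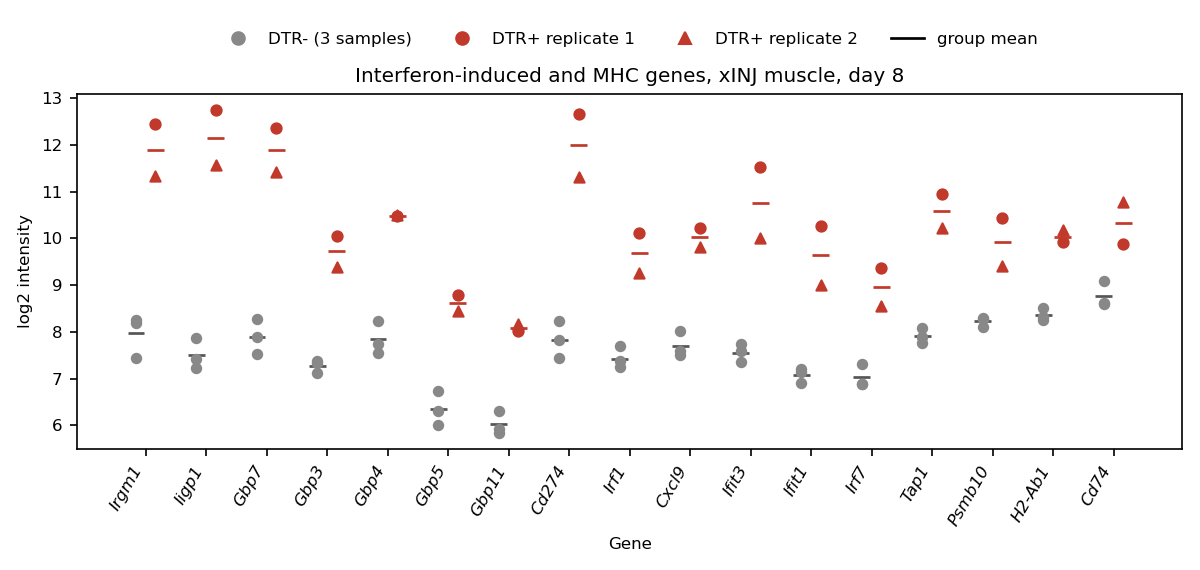
Log2 intensity of interferon-induced and MHC genes in each xINJ sample of day 8. Points are samples and short lines are group means. Both DTR+ samples lie above all 3 DTR- samples for each gene drawn, as for all 239 higher genes. DTR+ replicate 1 is higher than replicate 2 for most interferon genes and lower for H2-Ab1 and Cd74.

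Genes that answer type I interferon were higher as well. All 38 tested members had a positive difference, against 6301 of all 13332 genes, and 15 were higher and 0 lower (median 0.59). Ifit3, an antiviral protein of the Ifit family, was at 7.75, 7.35 and 7.59 against 11.52 and 10.01, with no overlap and 1.51 log2 units between the DTR+ samples. The difference was 3.20 ± 0.33 (9.19-fold, limma adjusted p = 1.29e-05). Ifit1, which binds foreign RNA caps, was at 7.20, 6.90 and 7.14 against 10.27 and 9.0 (2.56 ± 0.40). Both promoters carried 2 ISRE cores, shown because the 2 genes separate xINJ from CTx muscle, as described below.
Ifit3 (chr19:34583358-34583431, plus strand): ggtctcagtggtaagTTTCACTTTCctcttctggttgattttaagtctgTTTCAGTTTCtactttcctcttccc
Ifit1 (chr19:34640770-34640828, plus strand): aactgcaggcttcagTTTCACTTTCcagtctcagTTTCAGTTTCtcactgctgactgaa

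Irf7, which amplifies the type I response, was at 7.32, 6.89 and 6.89 against 9.37 and 8.56 (1.93 ± 0.29, limma adjusted p = 8.91e-04). Irf9, the DNA-binding part of the type I signalling complex, was at 7.06, 7.43 and 7.75 against 9.11 and 9.0 (1.64 ± 0.23, adjusted p = 3.65e-04). Oasl2, Rsad2, Usp18, Ifih1, Rtp4, Xaf1, Zbp1, Ifi35, Parp9, Parp12 and Stat2 also passed. This list leaned on DTR+ replicate 1, which was above replicate 2 in 33 of 38 members. Without it 4 members passed, and Ifit1 (1.92, adjusted p = 0.067) and Irf7 (1.53, adjusted p = 0.054) did not. Without any other of the 5 samples 12 to 14 passed, and Ifit3 and Irf9 passed in all 5 fits. Among promoters of higher genes 10.6% of 189 held an ISRE core, against 2.60% of all tested and 0 of 76 of the lower genes.

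Genes of antigen presentation were higher for both MHC classes. Of 18 genes of MHC class I and its peptide supply, 12 were higher and 0 lower (median 1.04). Tap1, a subunit of the transporter that loads peptides onto class I molecules, was at 7.89, 8.08 and 7.76 against 10.96 and 10.22 (2.68 ± 0.22, 6.43-fold, limma adjusted p = 9.79e-07). Psmb10, a catalytic subunit of the immunoproteasome, was at 8.30, 8.27 and 8.10 against 10.43 and 9.41 (1.70 ± 0.24, adjusted p = 4.28e-04). B2m, Tap2, Tapbp, Tapbpl, Psmb8, Psmb9, Psme1, Psme2, Erap1 and H2-Q4 also passed. The count for class I was 2 without DTR+ replicate 1, when Tap1 and Psmb10 passed and Psmb8 did not (1.00, adjusted p = 0.088), 7 without DTR- replicate 1 and 8 without DTR- replicate 3.

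Of 7 MHC class II genes, 4 were higher and 0 lower (median 1.20). H2-Ab1, a class II beta chain, was at 8.52, 8.26 and 8.31 against 9.92 and 10.17 (1.68 ± 0.19, limma adjusted p = 4.17e-05), and H2-Aa, an alpha chain, differed by 1.60 ± 0.22. Cd74, the invariant chain, was at 8.60, 9.08 and 8.61 against 9.89 and 10.78 (1.57 ± 0.26). Here DTR+ replicate 2 was the higher sample, in 6 of 7 members. Without it 2 of the 7 passed, H2-Ab1 and H2-Aa, and Cd74 was at 1.13 (adjusted p = 0.068).

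T cell genes did not pass in xINJ muscle. Of 17 T cell genes 0 were called, with a median of 0.20 and a positive difference in 14. In 8 both DTR+ samples lay above all 3 DTR- samples and in 1 below, against 15.3% and 14.7% of all genes tested. Of the defining markers, Cd3d and Cd3g were below the 40th percentile level in all 5 samples. The summed level of the 5 T cell markers was 336.3 to 412.8 in DTR- and 450.7 to 500.3 in DTR+ samples, on the linear scale. Among 15 NK, cytotoxic and Th1 genes 3 were higher, Nkg7, Ccl5 and Il2rb, and the 3 NK markers Ncr1, Klrd1 and Klrb1c were below the level throughout. Nkg7, a granule protein of NK and cytotoxic T cells, was at 6.31, 5.96 and 5.78 against 7.19 and 7.90, at least a 1.83-fold change (limma adjusted p = 0.012). It did not pass without DTR- replicate 3 (adjusted p = 0.067) or DTR+ replicate 2 (adjusted p = 0.22), nor did Ccl5 (adjusted p = 0.064 and 0.28), and Il2rb passed in 0 of the 5 fits. The list had 0 calls without either of those samples. Gzmb, the gene of granzyme B, was at 5.72, 5.78 and 5.47 against 6.24 and 6.25 and did not pass (adjusted p = 0.29), with both groups below the 40th percentile level. Neutrophil (4 tested), dendritic cell (13) and B cell (4) lists had 0 calls in either direction, and the inflammatory monocyte list (14) had 1, Plac8.

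Macrophage genes were among the higher genes. Of 26 pan-macrophage genes 13 were higher and 0 lower, with a median of 0.95. Mpeg1, a pore-forming protein of phagocytes, was at 6.77, 6.40 and 5.94 against 7.99 and 8.22 (1.74 ± 0.29, limma adjusted p = 0.0022). Cybb, the core of the phagocyte oxidase, was at 7.06, 7.18 and 6.92 against 8.23 and 8.66 (1.39 ± 0.18, adjusted p = 1.99e-04). C1qb, a chain of complement C1q that macrophages make, was at 8.66, 8.34 and 8.44 against 9.57 and 9.75 (1.18 ± 0.19, adjusted p = 0.0013). In all 3 genes DTR+ replicate 2 was the higher sample, as it was in 21 of the 26 members. The summed level of the 4 macrophage markers, which include Csf1r and Cd68, was 561.4 to 738.0 in DTR- and 885.0 to 1233.3 in DTR+ samples. The count was 3 without DTR+ replicate 2, 5 without DTR+ replicate 1 or DTR- replicate 3, and 8 without DTR- replicate 1. Mpeg1, Cybb and C1qb passed in all 5 fits.

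Genes of resident and alternatively activated macrophages changed less uniformly, with 6 of 22 higher and 1 lower (median 0.48). The chemokine genes Ccl6 (7.69, 7.69 and 7.11 against 9.22 and 9.29) and Ccl9 (7.06, 7.01 and 6.72 against 8.18 and 8.23) rose by 1.76 ± 0.29 and 1.28 ± 0.22. Retnla, a secreted protein of alternatively activated macrophages, was at 7.49, 7.63 and 7.97 against 9.74 and 9.89 (2.12 ± 0.43, limma adjusted p = 0.01). The lectin Mgl2 was at 6.24, 6.70 and 6.62 against 7.60 and 7.96, at least a 2.15-fold change. The lower member was Maf, a transcription factor of resident macrophages that other cells of muscle also express, and it passed in 1 of the 5 fits. The count of higher members was 2 without DTR+ replicate 2, and 3 in a fit of xINJ samples of both days with the day as a term. Without DTR+ replicate 1 and without DTR+ replicate 2 Retnla did not pass (2.19 and 2.05, adjusted p = 0.11 each), and without DTR+ replicate 2 Mgl2 did not (adjusted p = 0.062). Rnase2a, a ribonuclease gene placed in the eosinophil and type 2 list, was at 4.29, 4.51 and 4.62 against 6.66 and 7.49, at least a 1.32-fold change against the level of the dim arrays (adjusted p = 8.26e-04). The eosinophil markers Ccr3, Epx and Prg2 were below the level in all 5 samples. Cxcl13, a chemokine for B cells, named after its values were seen, was at 6.40, 6.84 and 6.32 against 8.47 and 8.60 (2.02 ± 0.31, adjusted p = 8.94e-04).

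A group of muscle wasting genes was higher in DTR+ muscle. FoxO transcription factors switch many of these genes on when muscle loses protein. Some of the products tag proteins with ubiquitin or build autophagosomes. Of 37 genes 9 were higher and 0 lower, with a median of 0.57, and 25 had both DTR+ samples above all 3 DTR- samples. Among all genes tested 15.3% had both DTR+ samples above. Trim63, the ubiquitin ligase MuRF1, was at 11.19, 11.75 and 10.51 in DTR- and 13.11 and 12.60 in DTR+ muscle (1.70 ± 0.41, 3.26-fold, limma adjusted p = 0.029). Depp1, an autophagy regulator that FoxO induces, was at 8.73, 8.98 and 7.32 against 10.91 and 9.75 (1.99 ± 0.44, adjusted p = 0.018). Both genes had the lowest value in DTR- replicate 3, and the groups did not overlap, as for all 239 higher genes. Gadd45a, which takes part in fibre atrophy after denervation and fasting, was at 8.69, 8.72 and 8.36 against 9.98 and 9.68 (1.24 ± 0.17, adjusted p = 3.53e-04). Sesn1, a stress sensor that restrains mTORC1, was at 10.34, 10.92 and 9.84 against 11.75 and 11.35 (1.18 ± 0.24). Bnip3, Foxo1, Ctsl, Map1lc3b and Eif4ebp1 also passed. Fbxo32, the ubiquitin ligase atrogin-1, was at 12.31, 12.61 and 11.64 against 13.33 and 13.06 and did not pass (1.01 ± 0.39, adjusted p = 0.25).

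The promoter of Trim63 held the FoxO core GTAAACA, here on the opposite strand and in capitals, a match that 2.16% of all tested promoters and 3.70% of those of higher genes also held. It is shown because Trim63 is an established FoxO target, and 1 of the 8 higher members with a promoter in the set used here held a match (12.5%). The Trim63 promoter also held a match to the glucocorticoid response element, which 0.255% of all tested promoters and 1.59% of those of higher genes held.
Trim63 (chr4:134314911-134314947, plus strand): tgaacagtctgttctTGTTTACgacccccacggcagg

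The number of these calls changed when a sample was left out, and a fit without a DTR+ sample has less precision. The count of 9 became 1 without DTR+ replicate 1, 3 without DTR+ replicate 2, 5 without DTR- replicate 1 and 2 without DTR- replicate 3. It was also 1 in the fit of xINJ samples of both days with the day as a term. Gadd45a passed in all 5 fits. Trim63 passed only without DTR- replicate 2 and otherwise lay between 1.39 and 1.96 (adjusted p = 0.083 to 0.34). Depp1 did not pass without DTR- replicate 3 (1.47, adjusted p = 0.098) or DTR+ replicate 1 (1.41, adjusted p = 0.38). Sesn1 did not pass without the same samples (0.92, adjusted p = 0.053, and 0.99, adjusted p = 0.19). The median of the list in CTx muscle was -0.02, with 2 of 37 higher and 1 lower, and a difference between the muscles was called for 0 of the 37 genes.

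Constitutive proteasome subunits, which degrade ubiquitin-tagged proteins, were grouped after the values were seen. Of 34 genes outside the 3 interferon-induced ones, 33 had a positive difference and 7 were higher (Psma4, Psma5, Psma7, Psmc4, Psmd3, Psmd8 and Psmd11), with a median of 0.50. Of these 7, 0 passed without DTR- replicate 3, 1 without DTR+ replicate 1 (Psma7) and 1 without DTR+ replicate 2 (Psma5), and Psma4 passed in 0 of the 5 fits. The median of the same genes in CTx muscle was -0.03, with 0 called.

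Some stress and acute-phase genes rose too. Of 24 glucocorticoid-induced genes 4 were higher (Arrdc3, Rhou, Mt1 and Mt2; median 0.56), of 18 acute-phase and interleukin 6 genes 5 were higher (median 0.42), and of 23 genes of iron, zinc and oxidative stress 5 were higher (median 0.15), with 0 lower in each. Mt2, a metallothionein that binds zinc, was at 10.81, 11.71 and 10.26 against 12.11 and 13.68, with replicate 2 by far the higher sample (1.97 ± 0.40, limma adjusted p = 0.01). Without that sample it did not pass (1.18, adjusted p = 0.28), nor without DTR- replicate 3 (1.63, adjusted p = 0.07). The glucocorticoid count was 1 without either of these samples and 2 without DTR+ replicate 1. With xINJ samples of both days and the day as a term the counts were 0 for glucocorticoid-induced genes, 2 for acute-phase genes and 0 for iron, zinc and oxidative stress. Hmox1, which degrades haem, was at 7.72, 7.70 and 7.48 against 8.45 and 9.90 (1.54 ± 0.32), and without DTR+ replicate 2 (0.82, adjusted p = 0.32) or DTR- replicate 3 (1.46, adjusted p = 0.064) it did not pass. Fkbp5, a standard glucocorticoid reporter gene, was at 9.05, 9.40 and 7.67 against 9.76 and 9.98 and did not pass (adjusted p = 0.18).

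Members that passed in all 5 fits were Slc39a14 and Il6ra. Slc39a14, a zinc and iron importer, was at 7.64, 8.02 and 7.55 against 8.76 and 9.60 (1.45 ± 0.21, limma adjusted p = 5.76e-04). Il6ra, the interleukin 6 receptor chain, was at 8.19, 8.84 and 7.89 against 9.93 and 9.73 (1.53 ± 0.23, adjusted p = 7.00e-04). Serpina3n, an acute-phase protease inhibitor, was at 8.35, 8.03 and 7.77 against 9.66 and 10.36 (1.96 ± 0.38), and without DTR+ replicate 2 it did not pass (1.61, adjusted p = 0.15). Gclm, the modifier subunit for glutathione synthesis, was at 9.28, 9.33 and 9.47 against 10.89 and 10.88, and the DTR+ samples were nearly equal (1.52 ± 0.28, adjusted p = 0.0044). Without DTR+ replicate 1 its difference was again 1.52, with an adjusted p of 0.071. Vegfd, a growth factor for lymphatic vessels, was at 7.78, 8.18 and 7.75 against 9.90 and 10.28 (2.19 ± 0.19, 4.56-fold, adjusted p = 1.27e-06) and passed in all 5 fits. Acute-phase calls numbered 2 without DTR+ replicate 2 and 3 without DTR- replicate 1 or DTR- replicate 3, and iron, zinc and oxidative stress calls 1 and 2 without DTR+ replicate 2 and DTR- replicate 3.

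Of the 107 genes that fell, 12 belonged to any of the 39 lists, and of the 239 that rose 104 did. The lists were chosen with earlier results of these data known, so these counts do not compare the directions. A change past 2-fold was seen in 36.4% of the lower genes and 58.2% of the higher ones. Nrep, a small protein linked to cell motility and regeneration, was at 10.24, 9.71 and 11.03 in DTR- and at 7.81 and 7.94 in DTR+ muscle (-2.45 ± 0.32, limma adjusted p = 1.99e-04). Ky, a protein of the Z-disc needed for normal muscle growth, was at 9.92, 9.21 and 10.87 against 7.39 and 7.89 (-2.36 ± 0.42, adjusted p = 0.0035). For both genes DTR- replicate 2 was the lowest control and replicate 3 the highest, and the DTR+ samples lay below all of them. Itgb6, an integrin beta chain that activates TGF-beta, was at 10.06, 9.20 and 10.46 against 8.04 and 8.23 (-1.77 ± 0.25, adjusted p = 4.49e-04). Sema6c, a transmembrane semaphorin, was at 9.95, 9.69 and 10.35 against 7.84 and 8.61 (-1.77 ± 0.26, adjusted p = 5.76e-04). Igfbp5, which binds insulin-like growth factors and is abundant in muscle, was at 10.93, 10.27 and 11.58 against 9.01 and 9.33 (-1.76 ± 0.28, adjusted p = 0.0013). Groups did not overlap in any of these genes, as in all 107 lower genes. The spread was wider among the DTR- samples than among the DTR+ samples except for Sema6c.

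**Figure D3:**
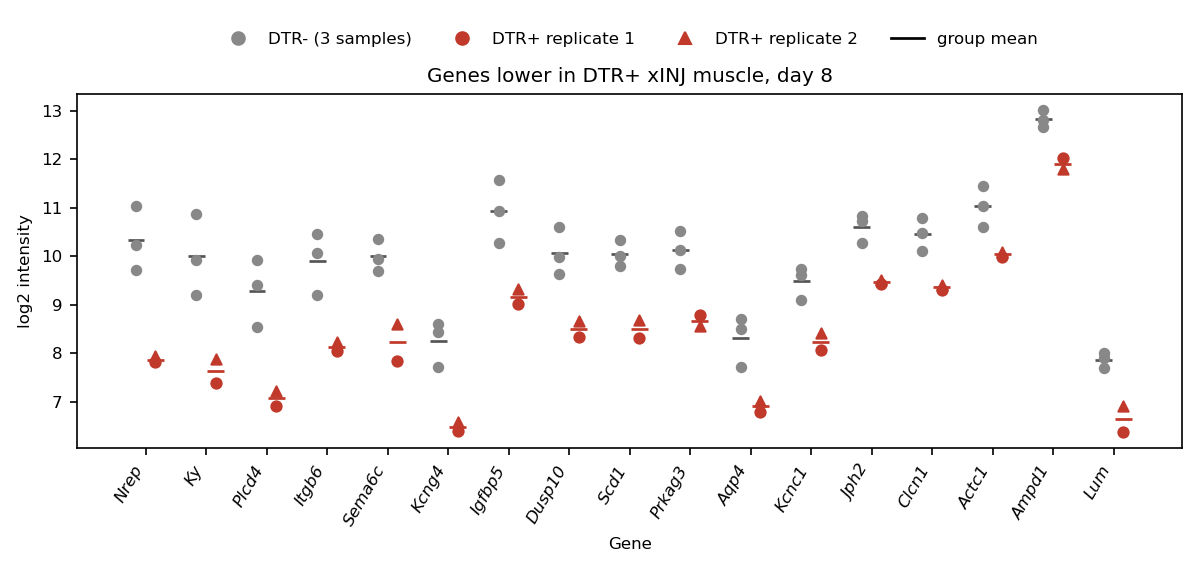
Log2 intensity of genes that were lower in DTR+ xINJ muscle at day 8. Points are samples and short lines are group means. Both DTR+ samples lie below all 3 DTR- samples for each gene drawn, as for all 107 lower genes. The DTR- samples spread more for most of those drawn, as for Nrep (9.71 to 11.03).

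Prkag3, the AMPK gamma subunit particular to fast muscle, was at 10.12, 9.73 and 10.53 against 8.78 and 8.56 (-1.46 ± 0.20, limma adjusted p = 3.65e-04). Dusp10, a phosphatase for p38 and JNK, was at 9.99, 9.63 and 10.60 against 8.34 and 8.66 (-1.57 ± 0.23, adjusted p = 5.41e-04). Scd1, which desaturates fatty acids, was between 9.79 and 10.33 in the 3 DTR- samples against 8.32 and 8.69 (-1.53 ± 0.31, adjusted p = 0.0098). The genes Nrep, Itgb6, Sema6c, Igfbp5, Prkag3 and Dusp10 passed in all 5 fits, 6 of the 7 lower genes that did. Ky did not pass without DTR+ replicate 1 (-2.11, adjusted p = 0.1), nor did Scd1 (-1.35, adjusted p = 0.18), which also missed without DTR- replicate 1 (-1.39, adjusted p = 0.056).

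Jph2, Kcnc1 and Clcn1 were named after their values were seen. Jph2, which ties the T-tubule to the sarcoplasmic reticulum, was at 10.73, 10.27 and 10.82 against 9.42 and 9.52 (-1.14 ± 0.21). Casq1, the calcium buffer of the reticulum in fast fibres, was at 13.35, 13.15 and 13.44 against 12.62 and 12.32 (-0.84 ± 0.17, limma adjusted p = 0.008). Kcnc1, a voltage-gated potassium channel, was at 9.61, 9.10 and 9.73 against 8.06 and 8.41 (-1.24 ± 0.23), and Clcn1, the chloride channel of the fibre membrane, differed by -1.10 ± 0.26. All 4 kept both DTR+ samples below every DTR- sample, as did all 107 lower genes. Of 47 potassium channel genes tested 4 were lower (Kcnc1, Kcng4, Kcnn2 and Kcnq5), 1 was higher (Kcnk5) and the median was -0.02. Jph2 and Kcnc1 missed without DTR+ replicate 1 (-1.09, adjusted p = 0.088, and -1.07, adjusted p = 0.15), Casq1 without DTR+ replicate 2 (-0.70, adjusted p = 0.16) or DTR- replicate 3 (-0.78, adjusted p = 0.052), and Clcn1 in every fit but that without DTR- replicate 2 (-0.94 to -1.14).

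Few genes passed in the lists of contractile and metabolic genes, and the medians were small. A positive difference was seen in 3 of 29 fast fibre, 4 of 15 slow fibre, 3 of 24 glycolysis and 7 of 24 lipid synthesis genes. In the myogenic list it was seen in 15 of 31, and among all genes tested in 6301 of 13332. Both DTR+ samples lay below all 3 DTR- samples for 13 fast fibre, 5 slow fibre, 13 glycolysis, 9 lipid synthesis and 8 myogenic genes. Of 29 fast fibre genes 2 were lower, Casq1 and Ampd1, with a median of -0.11, and of 15 slow fibre genes 0 passed. Ampd1, the muscle AMP deaminase, was at 12.81, 12.67 and 13.01 against 12.02 and 11.79 (-0.92 ± 0.16, limma adjusted p = 0.0037; -0.81, adjusted p = 0.082, without DTR+ replicate 2). Of 47 genes of mitochondrial respiration 0 passed, with a median of -0.24 and a positive difference in 1. In 31 the groups did not overlap, with DTR+ below, as held for 14.7% of all genes tested. Of 24 glycolysis genes 1 was lower, Pgam2 (median -0.26), and of 24 lipid synthesis genes 2 were lower, Scd1 and Gpam (median -0.22; 0 without DTR- replicate 1 or DTR+ replicate 1). Pgam2 missed in all 5 fits that left out a sample. Among 31 myogenic and regenerating fibre genes Runx1 was higher and Actc1 lower (in 1 and 3 of the 5 fits), and the markers of regenerating fibres summed to 500.3 to 919.9 in DTR- and 757.5 to 1026.7 in DTR+ samples.

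Few matrix and connective tissue genes passed. Of 36 extracellular matrix genes 3 were lower, Col1a2, Col15a1 and Lum, and 0 higher (median -0.23). Of 18 fibroadipogenic progenitor genes 1 was lower, Smoc2 (median -0.28). A positive difference was seen in 8 of the 36 and 1 of the 18, against 6301 of all 13332 genes. Both DTR+ samples lay below all 3 DTR- samples for 17 matrix and 6 progenitor genes, as held for 14.7% of all genes tested. Lum, a small proteoglycan that spaces collagen fibrils, was at 7.91, 7.70 and 8.00 against 6.37 and 6.91 (-1.23 ± 0.23, limma adjusted p = 0.0056; -0.96, adjusted p = 0.17, without DTR+ replicate 1). Summed markers of tendon were 1280.7 to 2491.4 in DTR- and 791.2 to 1080.8 in DTR+ samples, and those of fibroadipogenic progenitors 2242.6 to 2478.1 and 1923.4 to 1974.6. Tendon and progenitor markers thus moved with these genes, and their part in the difference was not tested. The matrix count was 0 without DTR+ replicate 1, 1 without DTR+ replicate 2, DTR- replicate 1 or DTR- replicate 3, and 2 without DTR- replicate 2. Of 23 stress response genes Atf4 and Hsph1 were higher and of 14 complement genes C4b and C3ar1 were higher. When 1 of the 5 samples was left out, Atf4 passed in 1 fit, C3ar1 in 2, Hsph1 in 3 and C4b in 4. In the list of ribosome assembly and polyamines 17 of 18 genes had a positive difference (median 0.38). For 11 of them both DTR+ samples lay above all 3 DTR- samples, as held for 15.3% of all genes tested. Sat1 was the only call among these 18, and Acot1 among 29 genes of fatty acid oxidation and fasting, both higher. Among 20 genes of insulin-like growth factor and insulin signalling Akt1 was higher and Igfbp5 lower. Of these, Sat1 passed in 0 of the 5 fits, Acot1 in 2, Akt1 in 3 and Igfbp5 in 5. Adipocyte, endothelial, nerve, tendon and smooth muscle, red blood cell, proliferation and circadian clock lists had 0 calls. Among them the tendon and smooth muscle list had a median of -0.42, with a positive difference in 1 of 13 genes. For 6 of the 13 both DTR+ samples lay below all 3 DTR- samples, against 14.7% of all genes tested.

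The same genotype contrast was set beside the day 8 CTx muscle, which has 3 samples of each genotype and shares none with xINJ muscle. There 489 of the 13332 genes passed (3.67%), 402 higher (3.02%) and 87 lower (0.653%). Genes higher in both muscles numbered 85, which is 35.6% of those higher in xINJ and 21.1% of those higher in CTx. Genes lower in both numbered 16 (15% and 18.4%), and 0 were called in opposite directions. Whether samples of the same title number came from opposite legs of an animal is not in the labels.

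A difference between the muscles in the genotype effect itself was called for 31 genes (0.233%), 17 with the more positive effect in xINJ (0.128%) and 14 in CTx (0.105%). Ifit3 differed by 3.71 ± 0.44 (SE) between the muscles (limma adjusted p = 6.49e-04): it was 3.20 higher with DTR+ in xINJ muscle and at -0.51 in CTx muscle. Ifit1 did the same, with 2.56 and -0.34 (difference adjusted p = 0.026). For the type I interferon list 15 of 38 were higher in xINJ and 3 of 38 in CTx, with medians of 0.59 and 0.07, while the GTPases had 10 of 11 higher in each, with medians of 2.45 and 2.09. Of the 38 differences between the muscles, only those of Ifit1 and Ifit3 passed. Vegfd rose in xINJ muscle (2.19) and was at 0.17 in CTx muscle (difference adjusted p = 0.001), and Gclm was at 1.52 and -0.37 (difference adjusted p = 0.037). Itgb6 (-1.77 and 0.04, difference adjusted p = 0.026) and Dusp10 (-1.57 and -0.07, difference adjusted p = 0.048) fell in xINJ muscle and did not pass in CTx muscle.

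In the other direction, the difference between the muscles passed for Rnase2a, Arg1 and Itgax (limma adjusted p = 0.023, 0.026 and 0.014). Its size was not measured for these genes, since values below the 40th percentile level entered it. Rnase2a was below the level in all DTR- xINJ samples, with a DTR- mean of 4.40 in CTx muscle, and reached 6.66 and 7.49 in the DTR+ xINJ samples against a DTR+ mean of 9.94 in CTx muscle. Arg1, the arginase of alternatively activated macrophages, was below the level in all 5 xINJ samples, and Itgax, the integrin CD11c, in all 3 DTR- ones. Of 17 T cell genes 13 were higher in CTx muscle against 0 in xINJ muscle, but the difference between the muscles passed for 0 of the 17. The count of 31 was between 7, without DTR+ xINJ replicate 1, and 31 when 1 of the 11 day 8 samples was left out.

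**Figure D4:**
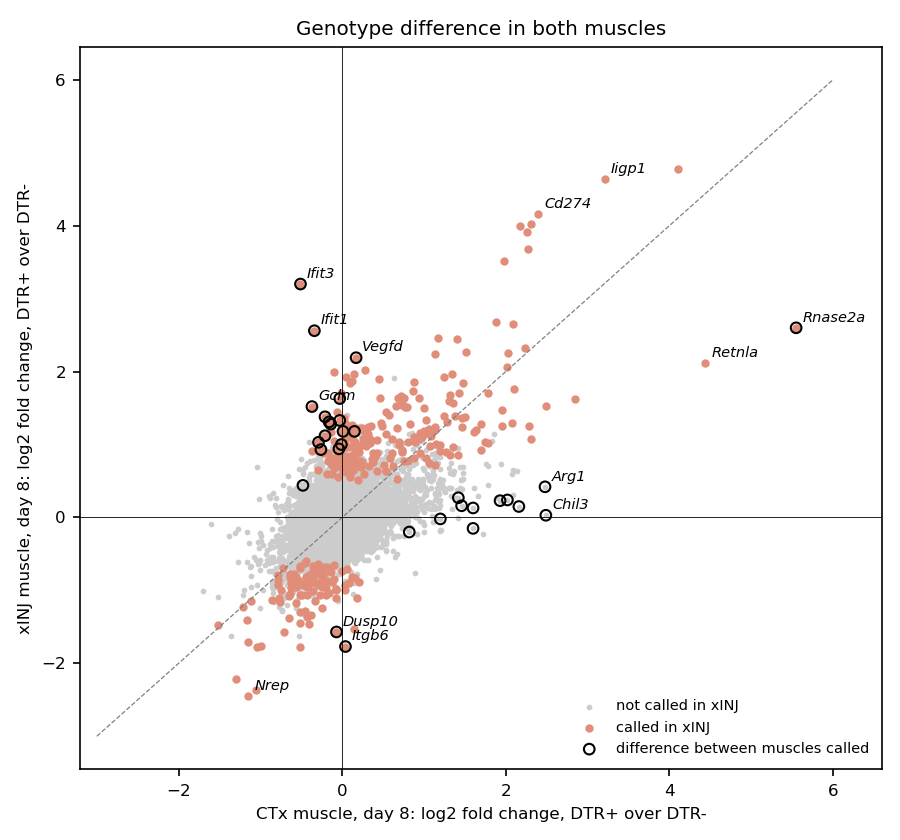
Genotype difference of 13332 genes in CTx (x axis) and xINJ (y axis) muscle at day 8, as log2 fold change of DTR+ over DTR-. Coloured points passed in xINJ muscle and circles mark the 31 genes whose difference between the muscles passed. Interferon GTPases lie high on both axes, Ifit3 and Ifit1 on the y axis alone, and Arg1 and Chil3, which were below the 40th percentile level in all 5 xINJ samples, on the x axis alone.

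The series has 1 DTR+ xINJ sample at day 4 and 3 DTR- xINJ samples of that day, of which replicate 1 carries a time tag of 8d. The DTR+ sample was in no contrast of the main fit. It did enter the fit of xINJ samples of both days with the day as a term, so it is no separate check on the counts of that fit. Of the 239 genes higher at day 8, the day 4 DTR+ sample was above all 3 DTR- samples for 137 (57.3%, against 17.6% of all genes tested). Of the 107 lower genes it was below all 3 for 63 (58.9%, against 20.5%). Against the other 2 controls alone these shares were 62.8% (all genes 25.5%) and 76.6% (all genes 40%). Counting replicate 1 at day 8 raised the calls of the day 8 contrast to 602, and leaving it out of the fit gave 353. Lists differed in this. The DTR+ sample was above all controls for 11 of 11 GTPases, 36 of 38 type I interferon genes, 26 of 26 macrophage genes and 7 of 7 MHC class II genes. Irgm1 was at 9.91 in that sample and at 7.80, 7.67 and 8.18 in the controls, 2.02 higher, against 3.92 at day 8. Ifit3 was at 9.06 against 7.77, 7.87 and 7.62.

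Among all genes tested, the day 4 DTR+ sample was above all 3 DTR- samples for 17.6% and below for 20.5%. For muscle wasting genes the day 4 sample was above the controls in 7 of 37, and below in 3. Trim63 was at 10.22 in it and at 10.49, 10.27 and 10.69 in the controls, and Depp1 at 7.30 against 6.65, 6.84 and 7.32. Vegfd, which rose at day 8, was at 7.72 against 7.66, 7.43 and 7.50, and Gclm at 9.06 against 8.97, 9.31 and 9.54. Of the constitutive proteasome genes 0 of 34 were above and 11 were below. With 1 sample the day 4 values carry no test, and the change between the days was not tested. Higher genes that were also above the controls at day 4 held an ISRE core in 18% of 100 promoters, and the other higher genes in 2.25% of 89.

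**Figure D5:**
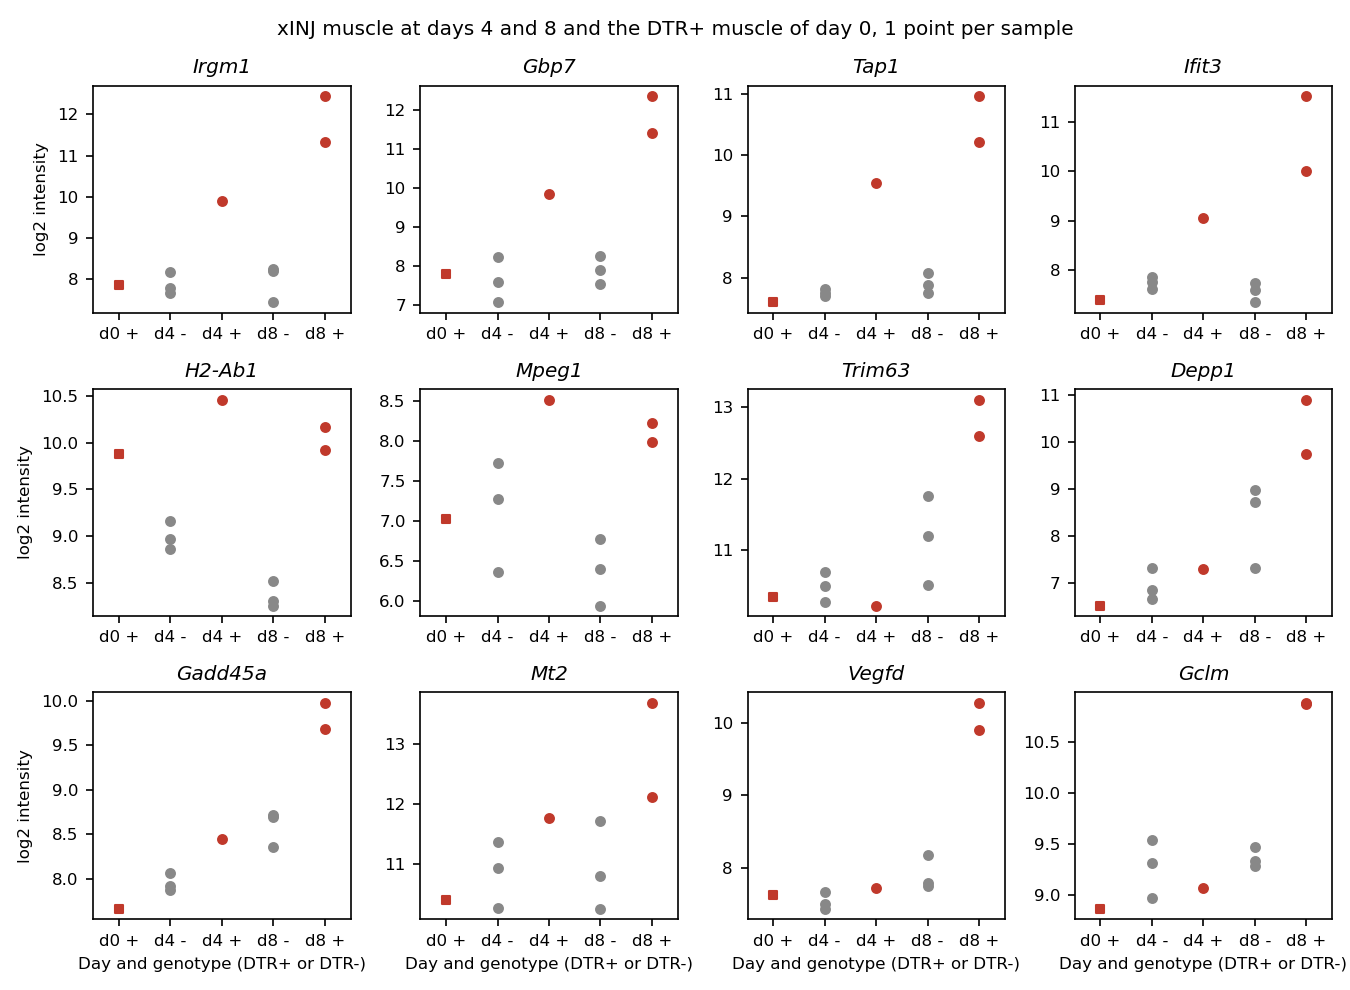
Log2 intensity of 12 genes in xINJ muscle at days 4 and 8 and in the single DTR+ sample of day 0, with DTR+ in red and DTR- in grey, 1 point per sample. The interferon and MHC genes are above the controls on both days, while Trim63, Depp1, Vegfd and Gclm are within or close to the controls at day 4 and above them at day 8.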

How the data were processed

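RNA of whole muscle was measured on Affymetrix gene arrays, 1 array for each sample. The authors deposited linear-scale intensities, 1 for each probe set, and the submitters' processing notes name RMA and Affymetrix Power Tools; no version is given in the sources used here. Here log2 was taken. Of 24922 probe sets, 21425 carry 1 gene symbol in the array annotation, 1399 several and 2098 are not listed. Those with 1 symbol stand for 19752 genes, and a gene with several probe sets (921) was represented by that of highest mean. The 13332 genes above the 40th percentile of the array (log2 6.6 to 6.82) on at least 2 of the 21 arrays were tested. A gene can pass this filter through the group in which it is high. Where the dimmer group lay below the level on all its arrays, a fold is given as "at least", against those arrays' mean 40th percentile, not a detection limit.

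All 21 samples entered a limma 3.58.1 fit (R 4.3.3) with a mean for each of 9 groups, 12 residual and 6.56 prior degrees of freedom. Two-sided p-values were adjusted over all genes tested by the Benjamini-Hochberg method. Alternatives changed the filter, scaling, pseudocount, prior, probe set rule, blocks, samples and the day of DTR- xINJ d4 replicate 1. The samples, comparisons and gene lists were chosen with earlier results of these data known. Named genes are the 15 largest differences in each direction among those that passed without overlap, 8 in each direction for the difference between muscles, up to 5 members of each list by p, the markers and a fixed set. Gbp5, Gbp9, Cxcl13, Foxo1, Map1lc3b, Maf, Jph2, Clcn1, the Kcn genes other than Kcng4, and members of lists named without values fall outside this and were named after their values were seen, as were the proteasome and potassium channel groups. Promoter sequences are the 250 bases before the start in RefSeq (GRCm38.p6). Array number limits the precision.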

Additional observations from a re-analysis of the deposited data

Results flagged for a closer look

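The genotype effect differed between xINJ and CTx muscle at day 8, by limma's test of the difference itself, for 31 genes. Among those named, the difference (xINJ minus CTx, log2) was 3.71 for Ifit3, 2.90 for Ifit1, 2.02 for Vegfd and 1.89 for Gclm. D230025D16Rik (1.65), Ctxn3 (1.60), Prune2 (1.47) and Lrrc58 (1.42) also rose more in xINJ muscle, where each passed, and were at -0.03, -0.21, -0.16 and -0.14 in CTx muscle. The effect was less positive in xINJ muscle for Rnase2a (-2.95), Chil3 (-2.45), Arg1 (-2.07), Pdcd1lg2 (-2.01), Itgb6 (-1.82), Col6a5 (-1.78), Apol7c (-1.75) and Itgax (-1.70). The xINJ values behind these fitted differences were below the 40th percentile level in all 5 samples for Chil3, Arg1, Pdcd1lg2 and Apol7c, and in all 3 DTR- samples for Rnase2a and Itgax, so the sizes for these 6 genes are not measured ones.

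Signal in samples outside the contrast came from day 4. The single DTR+ xINJ sample of that day was above all 3 DTR- samples for 137 of the 239 genes higher at day 8, and below all 3 for 63 of the 107 lower genes.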

How the results depend on the processing

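Under the alternatives run, 0 of the 346 called genes changed sign. The total stayed within 1.5 times of 346 under the filter, scaling, pseudocount, prior and probe set alternatives and with the 5 samples alone (311 to 404), and with genotype, day and number as a random block (362). It was 602 (253 lower) with DTR- xINJ d4 replicate 1 counted at day 8, and 353 with that sample left out, an alternative chosen after seeing the data. With xINJ samples of both days and the day as a term it was 153 (131 higher, 22 lower). Leaving out 1 of the 5 samples gave 90 to 437 genes, 77 to 213 of them higher and 13 to 224 lower; without DTR- replicate 2 the split was 213 higher to 224 lower, against 239 to 107. The cause was not tested.

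The title numbers are shared by 2 pairs of DTR+ and DTR- samples, whose deviations from the group means correlate at 0.29 and 0.08, and the labels do not say that numbers pair samples. Same-numbered xINJ and CTx samples of a genotype correlate at 0.31, 0.30, 0.06, 0.01 and 0.34. With the replicate number as a block 466 genes passed (326 higher, 140 lower).

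The 31 differences between the muscles were 55 (31 and 24) with the replicate block, 73 (41 and 32) with the random block, and 57 (36 with the more positive effect in xINJ) with DTR- xINJ d4 replicate 1 counted at day 8. Median centring gave 28 with the more positive effect in xINJ in place of 17, and the 60th percentile filter 8 with the more positive effect in CTx in place of 14. Leaving out 1 sample gave 7 to 31 in all, 5 to 19 with the more positive effect in xINJ and 2 to 22 with the more positive effect in CTx. Of genes that did not pass, Foxp3 ranged from -0.11 to 0.05 (without DTR- replicate 2) when 1 sample was left out, and Ifng from -0.12 (without DTR- replicate 1) to 0.19, with -0.04 without DTR+ replicate 2 and -0.01 with DTR- xINJ d4 replicate 1 at day 8.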
